A study of Homo sapiens with 4 samples.

Results

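The 7 human sirtuins, SIRT1 to SIRT7, were followed across the 4 arrays of a knockdown experiment in non-small cell lung cancer cells. Every probe set that the platform annotation assigns to exactly 1 of these genes was taken, which gave 17 of the 54675 probe sets on the array and 7 of the 19775 genes with a probe set of their own. SIRT1 and SIRT7 had 1 probe set each, SIRT2, SIRT4 and SIRT6 had 2 each, SIRT3 had 3 and SIRT5 had 6. Groups were H1299 cells with hMOF siRNA, H1299 cells with scramble siRNA, A549 cells with hMOF siRNA and A549 cells with scramble siRNA, with 1 array each. hMOF is the histone acetyltransferase encoded by KAT8, and all cells, scramble controls included, were transfected with a lipid reagent. H1299 is a line from a lymph node metastasis and A549 is a lung adenocarcinoma line, so each stands for a single tumour.

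Sirtuins remove acetyl and longer acyl groups from lysines and consume NAD+ in the reaction. SIRT1, SIRT6 and SIRT7 act mainly in the nucleus, SIRT2 mainly in the cytoplasm, and SIRT3, SIRT4 and SIRT5 in mitochondria. SIRT1 and SIRT2 remove the acetyl group from lysine 16 of histone H4, the residue that hMOF acetylates, which makes them its counterparts on that mark.

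The region just before the start of SIRT1 is shown because this gene differed most between the lines among the sirtuins. Its 250 bases lie at chr10:67884406-67884655 on the plus strand of GRCh38.p14 and come from RefSeq. Capitals mark each match to CACGTG, the E-box read by basic helix-loop-helix factors, which is the same on both strands.
SIRT1: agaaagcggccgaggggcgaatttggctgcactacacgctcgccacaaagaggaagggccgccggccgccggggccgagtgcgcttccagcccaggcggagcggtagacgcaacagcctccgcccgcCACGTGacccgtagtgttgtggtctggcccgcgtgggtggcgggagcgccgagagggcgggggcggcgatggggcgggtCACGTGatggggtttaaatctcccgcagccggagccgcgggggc
The window held 2 matches, whose first bases lie 123 and 44 bases before the start. At least 1 match was present in 6.34% of all 35116 RefSeq promoter windows of this length, and 2 or more in 0.535%. GGGCGG, the GC box, was found 4 times over both strands, as in a SIRT6 window, and 7.63% of all windows held 4 or more. Both motifs contain CpG, of which the SIRT1 window held 32, against a median of 11 over all windows. No E-box match overlapped a GC box match, and neither TATAAA nor CCAAT was found on either strand. RefSeq windows were matched for 6 of the 7 genes, 9 windows in all, and no window of SIRT2 to SIRT6 held CACGTG. Such matches are letters in a window, and factor binding was not measured.

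Signals are MAS5 intensities, a linear scale on which 1 probe set cannot be ranked against another. All ratios are log2 of signal plus an offset of 29.06, which shrinks ratios of dim probe sets. A probe set entered the tests when its mean over the 4 arrays reached 78.1, the 50th percentile of all probe sets, and 27307 did. Of the 17 sirtuin probe sets, 13 from 6 genes passed. Both SIRT4 probe sets and 2 of SIRT5 (222081_at and 1569938_at) lay below and were not tested. Tests used limma over the 4 arrays with terms for line and siRNA and Benjamini-Hochberg adjustment over the 27307 probe sets, and "called" means an adjusted p below 0.05. With 1 array per group, the 2 lines stand in as repeats of the siRNA comparison and the 2 siRNAs as repeats of the line comparison. Separate cultures are not mentioned in the labels, and p values therefore measure no spread among repeats of a group. For each probe set the fit has 1 residual degree of freedom, its departure from adding line and siRNA effects. The fit borrows 4.82 prior degrees of freedom from all tested probe sets, and 4 arrays limit the precision.

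Array medians lay between 73.3 and 75.4. KAT8 (221820_s_at) stood at 61.8 with hMOF siRNA and 241 with scramble in H1299, and at 106 and 402 in A549, and its fall was called (mean log2 −1.62, limma adjusted p = 0.0115). Its other probe set, 214885_at, averaged under the minimum and was not tested. That probe set fell less, reading 39.8 and 61.7 in H1299, and 51.6 and 61.6 in A549 (mean log2 −0.28). On 2 of the 4 arrays, H1299 with hMOF siRNA and A549 with scramble, the treatment tag names the other siRNA. Groups follow the source names. CDKN2A, a gene known to be deleted in A549, was at 1176 and 1317 in H1299 and at 46.5 and 33.5 in A549 (hMOF siRNA and scramble). The summed signal of 5 epithelial markers was 2716 and 3600 in H1299 and 19998 and 21997 in A549, and CDH1, the epithelial cadherin, was at 7.61 and 8.04 in H1299, against 1562 and 1535 in A549. Of 3 blood markers with a probe set 1 reached the minimum, and their summed signal was 148 and 159 in H1299 and 237 and 245 in A549. PTPRC, the pan-leukocyte marker, stayed between 31.6 and 41.5, whereas CD14, a monocyte marker, was at 28.0 and 30.4 in H1299 and at 116 and 127 in A549. Of 4 fibroblast markers 1 reached the minimum, the collagen gene COL1A1, at 7.89 and 7.97 in H1299 and at 1191 and 541 in A549. The other fibroblast markers, COL1A2, DCN and LUM, lay between 37.9 and 70.4 on every array. Of 3 endothelial markers 2 reached the minimum, PECAM1 between 205 and 224 and VWF between 99.7 and 114. Of 3 lung alveolar markers 2 did, SFTPB between 702 and 798 and SFTPC between 110 and 120. VIM, a mesenchymal marker, was at 15594 and 15787 in H1299 and at 11326 and 9367 in A549. The part of these marker differences in the line comparison was not tested.

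**Figure D1:**
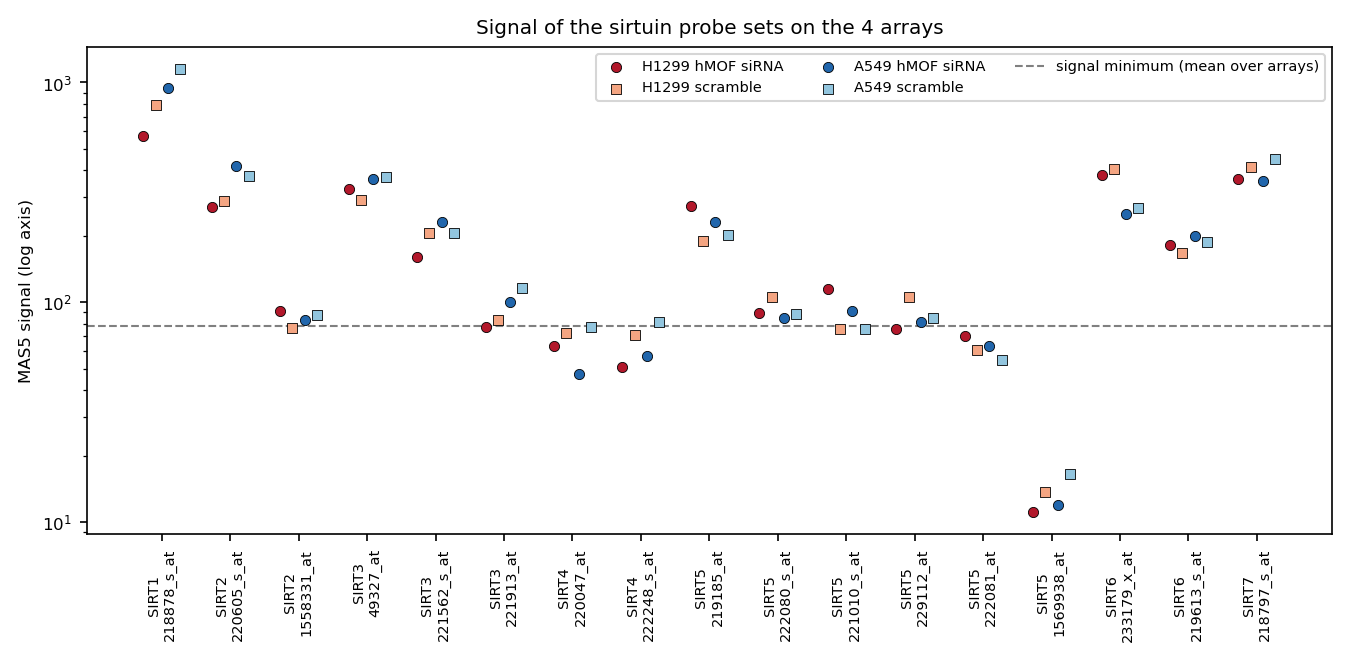
MAS5 signal (log axis) of the 17 sirtuin probe sets on the 4 arrays, 1 point per array, with the mean-signal minimum of 78.1 as a dashed line. SIRT1 stood highest on the A549 scramble array and lowest on the H1299 hMOF siRNA array, and both SIRT4 probe sets and 2 SIRT5 probe sets averaged below the line.

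The first comparison asked whether sirtuin transcripts differed with hMOF siRNA. Of the 13 tested sirtuin probe sets 0 were called by limma, whereas 5.95% of the 27307 probe sets were called, 1.93% higher and 4.01% lower. In H1299, 0 of the 13 reached 2-fold, where 2.98% of all probe sets did, 1.14% higher and 1.85% lower. In A549, 0 of the 13 did, where 1.62% of all did, 0.656% higher and 0.967% lower. Ratios of the 13 tested probe sets ran from −0.45 to 0.47 in H1299 and from −0.30 to 0.20 in A549. Their median over both lines was −0.079, against −0.015 for all 27307. The unadjusted p was under 0.05 for 3 of the 13, SIRT1 218878_s_at and SIRT5 219185_at and 221010_s_at, where 6376 of all 27307 (23.3%) were, which is about the same share. Of these, 221010_s_at lay under the signal minimum on both scramble arrays and was tested only through its hMOF siRNA signals. The lowest adjusted p was 0.135.

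The nuclear deacetylase SIRT1 had the widest mean ratio over both lines among tested sirtuin probe sets, although SIRT5 219185_at was wider in H1299 and SIRT7 in A549. SIRT1 signal (218878_s_at) was 571 with hMOF siRNA and 790.4 with scramble in H1299, and 940.4 with hMOF siRNA and 1149.55 with scramble in A549. It was thus below scramble in both lines, at 72.2% of the scramble signal in H1299 and 81.8% in A549. The mean log2 ratio was −0.37 (SE 0.12, 95% interval −0.66 to −0.076, unadjusted) and was not called (adjusted p = 0.135 by limma). A larger absolute ratio was found in 19.3% of all tested probe sets. Of the 11 alternatives, 10 gave adjusted p values between 0.119 and 0.186, and leaving out the line term gave 0.999976.

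SIRT7 and SIRT6 are the other chromatin sirtuins. SIRT7, which works at ribosomal DNA and removes acetyl from histone H3, was at 364 with hMOF siRNA and 413 with scramble in H1299, and at 356 and 447 in A549. Both lines lay below scramble, with a mean log2 of −0.24 (95% interval −0.52 to 0.048, limma adjusted p = 0.290). SIRT6, a deacetylase of histone H3 at telomeres and glycolytic genes, had 2 probe sets with ratios on opposite sides of 0. Probe set 233179_x_at read 379 with hMOF siRNA and 403 with scramble in H1299, and 253 and 268 in A549. Its partner 219613_s_at read 182 and 168 in H1299, and 199 and 188 in A549. Neither ratio was called, and the intervals ran from −0.36 to 0.20 for 233179_x_at and from −0.19 to 0.36 for 219613_s_at.

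SIRT2, the mainly cytoplasmic deacetylase of tubulin, had no ratio on the same side of 0 in both lines. Probe set 220605_s_at read 270.2 with hMOF siRNA and 290.1 with scramble in H1299, and 415 and 375 in A549. The dimmer 1558331_at went the other way, at 91.0 and 76.1 in H1299 and 83.1 and 87.7 in A549. Neither was called, with intervals of −0.28 to 0.32 for 220605_s_at and −0.24 to 0.37 for 1558331_at.

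Among mitochondrial sirtuins, SIRT3, the main deacetylase of the matrix, had 3 probe sets and none was called. Probe set 49327_at was at 328 with hMOF siRNA and 293 with scramble in H1299, and at 365 and 372 in A549. Probe set 221562_s_at was at 161 and 207 in H1299, and at 233 and 207 in A549, the widest gap between the lines of any sirtuin (log2 −0.31 in H1299 and 0.15 in A549). The dimmest, 221913_at, was at 77.2 and 83.2 in H1299, and at 100.1 and 116 in A549. Probe sets 49327_at and 221913_at were designed from the same sequence record, so they are not independent readings, yet their H1299 ratios had opposite signs. The lines' difference in the siRNA ratio could not be tested with 1 array pair per line.

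SIRT5 removes succinyl, malonyl and glutaryl groups from mitochondrial and cytosolic enzymes, and its probe sets divided into higher and lower ones. Its brightest probe set, 219185_at, was at 275 with hMOF siRNA and 190.5 with scramble in H1299, and at 233 and 201 in A549. Probe set 221010_s_at was at 115 and 75.8 in H1299, and at 91.1 and 75.6 in A549. Both lay above scramble in both lines, with mean log2 ratios of 0.33 and 0.33, and neither was called (limma adjusted p = 0.197 for 219185_at and 0.191 for 221010_s_at).
The remaining tested SIRT5 probe sets lay below scramble in both lines. Probe set 229112_at read 75.6 with hMOF siRNA and 106 with scramble in H1299, and 81.7 and 84.5 in A549. Probe set 222080_s_at read 89.9 and 105 in H1299, and 85.1 and 88.3 in A549. Of the untested ones, 222081_at, which shares its sequence record with 222080_s_at, lay above scramble in both lines, at 70.6 and 60.8 in H1299 and 63.6 and 54.8 in A549. Probe set 1569938_at, under 17 on every array, lay below scramble in both lines. When the 4 tested SIRT5 probe sets were averaged, the mean log2 ratio was 0.086, against 0.33 for 219185_at alone.

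SIRT4, a mitochondrial lipoamidase and ADP-ribosyltransferase, was dim on every array. Probe set 220047_at stood at 63.0 with hMOF siRNA and 72.9 with scramble in H1299, and at 47.4 and 77.6 in A549. Probe set 222248_s_at stood at 50.9 and 70.9 in H1299, and at 57.0 and 81.1 in A549. All 4 pairs lay below scramble. With no filter on signal both probe sets could be tested, and neither was called (limma adjusted p = 0.251 for 220047_at and 0.136 for 222248_s_at).

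**Figure D2:**
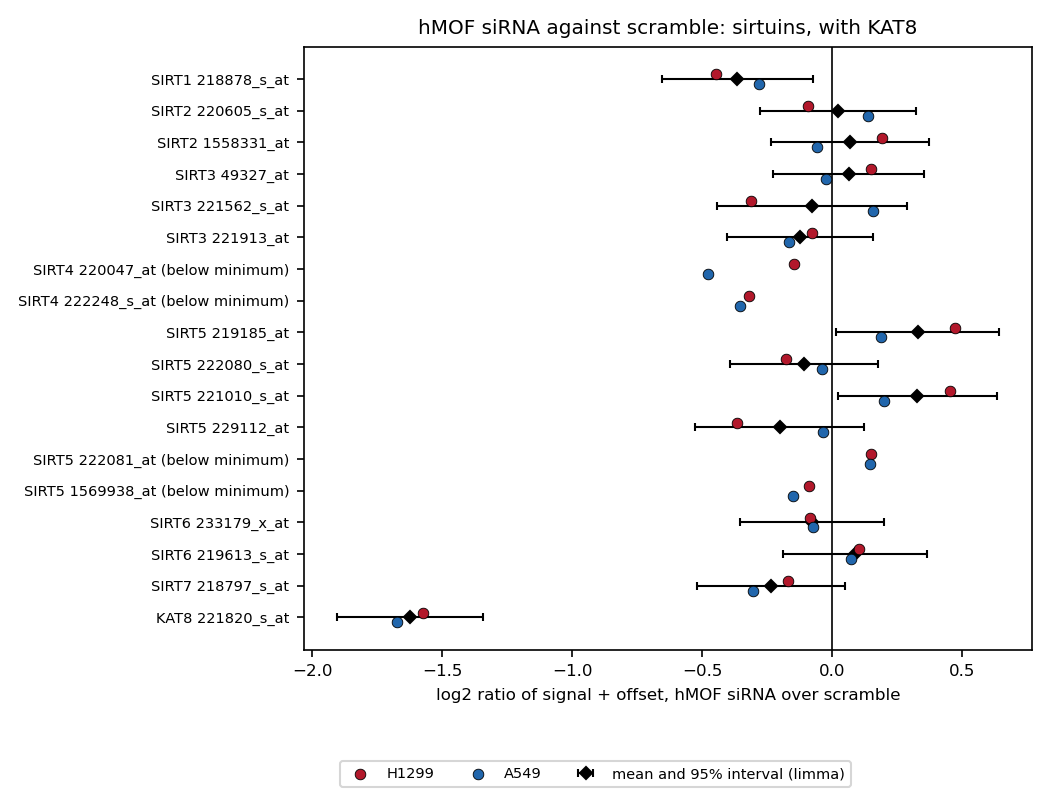
Log2 ratio of signal plus offset, hMOF siRNA over scramble, for each sirtuin probe set in H1299 (red) and A549 (blue), with limma's mean and 95% interval in black for tested probe sets, and KAT8 for scale. Sirtuin means lay between −0.37 and 0.33, whereas KAT8 lay at −1.62.

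Of the 13 tested probe sets, 9 had siRNA ratios on the same side of 0 in both lines, 6 below and 3 above, where 66.6% of all probe sets did. The 4 with opposite signs were both of SIRT2 and SIRT3 49327_at and 221562_s_at.

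The next comparison set H1299 against A549. SIRT1 and SIRT2 220605_s_at were lower in H1299 and SIRT6 233179_x_at was higher, so 3 of 13 tested probe sets were called, against 50% (13645) of all probe sets. By direction that is 1 higher and 2 lower, where 25.3% of all were higher and 24.6% lower. No tested sirtuin differed 2-fold, where 18.8% of all probe sets did with hMOF siRNA and 17.6% with scramble. The line ratio kept its side of 0 with both siRNAs for 8 of 13, where 83.9% of all did. The signals of the lines did not overlap for 7 of the 13, 5 lower and 2 higher in H1299, where 69.3% of all probe sets had no overlap. The median ratio was −0.040 for the sirtuins and −0.0050 for all probe sets.

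SIRT1 was lower in H1299 with both siRNAs, at log2 −0.69 with hMOF siRNA and −0.52 with scramble. The mean of −0.61 (SE 0.12, 95% interval −0.90 to −0.32, limma adjusted p = 0.00733) puts H1299 at 0.656 of A549 on the scale of signal plus offset. All 4 signals were ordered by line first and siRNA second, as the signals above show, with the hMOF siRNA array the lower of each line. The call was lost without the siRNA term (limma adjusted p = 0.0966).

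SIRT2 220605_s_at was lower in H1299 with both siRNAs, at log2 −0.57 with hMOF siRNA and −0.34 with scramble (mean −0.45, SE 0.12, limma adjusted p = 0.0243). The SIRT2 probe set 1558331_at was at 0.098 and −0.15, and its interval ran from −0.33 to 0.28. The SIRT2 call was lost when both probe sets were averaged (mean −0.24, limma adjusted p = 0.101) and without the siRNA term (0.0560).

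SIRT6 disagreed between its probe sets. On 233179_x_at, H1299 was higher by log2 0.53 with hMOF siRNA and 0.54 with scramble (mean 0.54, SE 0.11, limma adjusted p = 0.00994). On 219613_s_at, H1299 was at −0.12 and −0.14 and was not called (95% interval −0.41 to 0.15). The suffix _x_at marks probes that can match other transcripts, and whether 233179_x_at reads SIRT6 alone was not tested. Averaging both gave a mean of 0.20 that was not called (limma adjusted p = 0.150). The 233179_x_at call stayed without the siRNA term (limma adjusted p = 0.0329).

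All 3 SIRT3 probe sets had means below 0, from −0.33 to −0.23, and none was called. The lowest adjusted p was 0.0578, for 221913_at, and that probe set was called with an offset of 0 (limma adjusted p = 0.0376), with no filter (0.0482) and with a trend in eBayes (0.0453). The means of the 4 tested SIRT5 probe sets lay between 0.071 and 0.13, none called, with intervals that together ran from −0.24 to 0.44. SIRT7 had a mean of −0.040 (95% interval −0.32 to 0.25, limma adjusted p = 0.802).

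**Figure D3:**
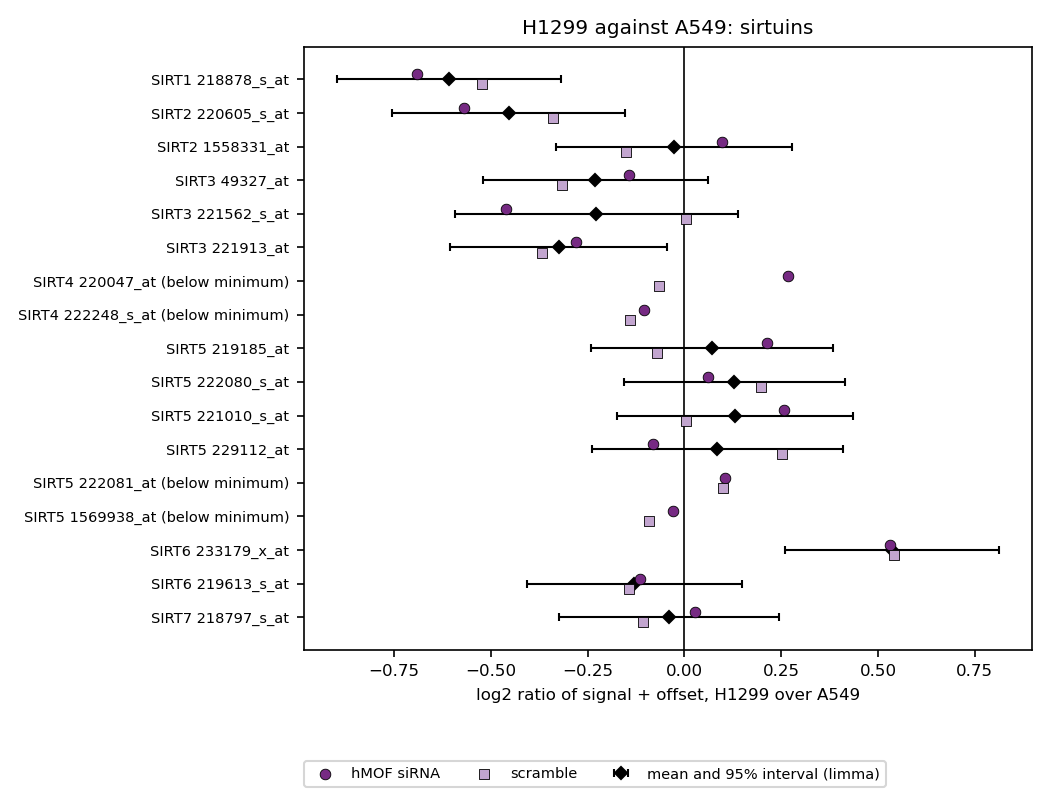
Log2 ratio of signal plus offset, H1299 over A549, for each sirtuin probe set with hMOF siRNA (dark circles) and with scramble (light squares), with limma's mean and 95% interval in black for tested probe sets. SIRT1 (−0.61) and SIRT2 220605_s_at (−0.45) lay to the left of 0, and SIRT6 233179_x_at (0.54) to the right, apart from its partner 219613_s_at (−0.13).

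For the 3 genes called between lines, the closest profiles over the 4 arrays were found by Euclidean distance between mean-centred log2 values, over each gene's brightest probe set. For SIRT1 they were PPM1A (distance 0.011), ERICH1 (0.013) and RANGRF (0.022). PPM1A, a protein phosphatase, read 646 with hMOF siRNA and 893 with scramble in H1299, and 1069.7 and 1305 in A549. For SIRT2 they were DGKA (0.024), KANSL1 (0.029) and ENTPD7 (0.037), of which KANSL1 is a scaffold of the NSL complex that holds hMOF. For SIRT6 233179_x_at they were MRPL41 (0.027), MYDGF (0.031) and SUGP2 (0.036). With 4 arrays and 12830 genes, such distances are a description only.

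Genes that supply, use or share substrates with sirtuins were examined through 6 lists of 89 genes, 76 of which had a tested probe set, and each gene was read on its brightest one. With hMOF siRNA 1 gene rose, 5 fell and 70 did not pass, where 2.29% of 12830 genes rose and 4.55% fell. None of the 6 stayed called without the line term, where limma called 0 probe sets of the whole table. One of the 5 that fell is KAT8, the siRNA target, which SIRT1 also deacetylates.

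NAD synthesis genes were not called with hMOF siRNA, 0 of 15, with a median log2 ratio of −0.026. Of all genes 2.29% rose and 4.55% fell. NAMPT, the rate-limiting enzyme of NAD salvage, read 1924 with hMOF siRNA and 2015 with scramble in H1299, and 3434 and 3403 in A549. The widest ratio belonged to NMRK1, a nicotinamide riboside kinase, at −0.63 in H1299 and −0.31 in A549 (limma adjusted p = 0.0999). SLC25A51, the mitochondrial NAD+ carrier, was at −0.52 and −0.24 (limma adjusted p = 0.141). Of the 8 tested genes that consume NAD+ or nicotinamide, 0 were called. TNKS2, a tankyrase that also uses NAD+, was at −0.84 in H1299 and −0.32 in A549 (limma adjusted p = 0.0900). SARM1, an NAD+ hydrolase, was at 0.34 and 0.16, and TNKS, the other tankyrase, at 0.19 and 0.25 (limma adjusted p = 0.275 for SARM1 and 0.307 for TNKS).

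Between lines the share of these genes called in either direction was near that of all genes. In NAD synthesis 2 of 15 were higher and 7 lower in H1299, and among consumers 0 of 8 were higher and 4 lower. Beside this, 53.6% of all genes were called in either direction. Of all probe sets 25.3% were called higher and 24.6% lower. The genes named next had the widest ratios of their lists, except NAPRT. KYNU, the kynureninase of the tryptophan route, read 5.11 and 5.72 in H1299, and 6666 and 7598 in A549 (hMOF siRNA and scramble). NNMT, which methylates nicotinamide, read 92.5 and 67.7 in H1299, and 7103 and 6852 in A549 (log2 −6.01, limma adjusted p = 3.94e-06). TDO2, the first enzyme of the tryptophan route, read 6.69 and 7.68 in H1299, and 149 and 227 in A549. BST1, an NAD+ glycohydrolase of the cell surface, read 20.2 and 23.1 in H1299, and 224 and 263 in A549. TNKS2 was lower in H1299 by less (log2 −0.86, limma adjusted p = 0.00566). The H1299 signals of KYNU, TDO2 and BST1 lay under the offset, which sets their ratios in part. These genes entered the tests only through their A549 signals, so the filter fixed their direction and their calls are no test of it. They are among those counted above as lower in H1299. NMNAT1, the nuclear NAD synthase, went the other way, at 505 and 597 in H1299, and 149 and 127 in A549 (log2 1.79, limma adjusted p = 0.000253). NAPRT, which starts NAD synthesis from nicotinic acid, was higher in H1299 as well (log2 1.04, limma adjusted p = 0.000799).

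Of 10 tested sirtuin regulators, 1 fell with hMOF siRNA, 0 rose and 9 did not pass. Over all genes 4.55% fell and 2.29% rose. SENP1, the SUMO protease that acts on SIRT1 and SIRT3, read 334 with hMOF siRNA and 666 with scramble in H1299, and 192 and 383 in A549. It stood at 50.1% of scramble in H1299 and 50.2% in A549 (mean log2 −0.92, SE 0.11, limma adjusted p = 0.0176). Its other tested probe set, 1552812_a_at, was dimmer and was not called (mean −0.34, limma adjusted p = 0.151). Averaged over both, the SENP1 mean was −0.63 and stayed called (0.0439). PRKAA1, a catalytic subunit of AMPK, which raises NAD+ for SIRT1, was at −0.55 in H1299 and −0.52 in A549 (limma adjusted p = 0.0538). RPS19BP1, known as active regulator of SIRT1, was at 0.48 and 0.39 (limma adjusted p = 0.0869), and CCAR2, the SIRT1 inhibitor, at −0.31 and −0.025. Between lines 5 of the 10 were higher in H1299 and 0 lower, where 53.6% of all genes were called in either direction. By direction, 25.3% of all probe sets were called higher and 24.6% lower. The widest were RPS19BP1 (log2 0.91, limma adjusted p = 0.00137), SENP1 (0.73, 0.00305) and CLOCK, the circadian factor (0.66, 0.00897).

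Nuclear and cytosolic substrates gave 3 falls with hMOF siRNA, 0 rises and 14 that did not pass, with a median of −0.12. Over all genes 4.55% fell and 2.29% rose, and KAT8 in this list is the siRNA target itself. The falls were KAT8, FOXO3 and ACSS2. FOXO3, the forkhead factor deacetylated by SIRT1, read 636 with hMOF siRNA and 1574 with scramble in H1299, and 590.4 and 1009.5 in A549 (224891_at; mean log2 −1.01, SE 0.16, limma adjusted p = 0.0273). Its other tested probe sets 204131_s_at and 224889_at were called lower as well (means −0.91 and −0.70), and the gene has a near-identical pseudogene copy that probes may not tell apart. ACSS2, the cytosolic acetyl-CoA synthetase that SIRT1 activates, read 495 and 858 in H1299, and 387 and 609 in A549 (mean −0.69, limma adjusted p = 0.0324). With 1 brightest probe set per gene the adjusted p was 0.0504 for FOXO3 and 0.0510 for ACSS2. FOXO1, a forkhead relative, was at −0.44 in H1299 and −0.53 in A549 and did not pass (limma adjusted p = 0.0687). Between lines 2 of the 17 were higher and 6 lower in H1299. In either direction 47.1% were called, beside 53.6% of all genes. By direction, 25.3% of all probe sets were called higher and 24.6% lower. The widest were FOXO1 (log2 −1.56, limma adjusted p = 0.000189), HIF1A, the hypoxia factor (−1.25, 0.000417), and STAT3, a cytokine-driven factor (−0.93, 0.0135).

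Mitochondrial substrates gave 1 rise with hMOF siRNA, 0 falls and 12 that did not pass, with a median of 0.12. Over all genes 2.29% rose and 4.55% fell. LONP1, the matrix protease, read 877 with hMOF siRNA and 319 with scramble in H1299, and 1042 and 529 in A549 (mean log2 1.16, SE 0.14, limma adjusted p = 0.0179). SOD2, the manganese superoxide dismutase activated by SIRT3, was at 0.22 and 0.14, and IDH2, the matrix isocitrate dehydrogenase activated by SIRT3, at 0.095 and 0.34, neither called. ACADVL, an enzyme of fatty acid oxidation, was at 0.52 and 0.36, and DLAT, a pyruvate dehydrogenase subunit, at −0.25 and −0.51 (limma adjusted p = 0.0902 for ACADVL and 0.139 for DLAT). In H1299 SOD2 and IDH2 were lower than in A549, at log2 −1.51 for SOD2 and −1.23 for IDH2, and CPS1, the urea cycle enzyme that SIRT5 activates, was at −4.52 (limma adjusted p = 5.49e-06). ACSS1, the mitochondrial acetyl-CoA synthetase that SIRT3 activates, was lower in H1299 too (log2 −1.57, limma adjusted p = 0.000238). CPS1 read 32.9 with hMOF siRNA and 38.7 with scramble in H1299, and 1342 and 1591 in A549. ACSS1 read 52.2 and 51.8 in H1299, and 233 and 192 in A549. Both lay under the minimum of 78.1 in H1299 and entered the tests only through their A549 signals. The filter thus fixed their direction, and their calls are no test of it. In this list 3 were higher and 6 lower in H1299, of 13, beside 53.6% of all genes called. The lower ones include CPS1 and ACSS1.

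For SIRT7, the list of RNA polymerase I subunits and partners gave 1 fall, 0 rises and 12 that did not pass. Beside this, 4.55% of all genes fell and 2.29% rose. POLR1A, the largest polymerase I subunit, read 75.04 with hMOF siRNA and 136 with scramble in H1299, and 233 and 404 in A549 (mean log2 −0.69, limma adjusted p = 0.0307). Its probe sets 235280_at and 222704_at were not called (means −0.36 and −0.031), and the call was lost when all 3 were averaged (mean −0.36, adjusted p = 0.121). UBTF, the polymerase I activator, was at 0.44 in H1299 and 0.51 in A549 (limma adjusted p = 0.0713), and ELK4, which recruits SIRT7 to promoters, was at 0.50 and 0.51 (0.0601). POLR1D, a subunit shared by polymerases I and III, was at −0.82 and −0.24 (limma adjusted p = 0.126). Between lines 3 of the 13 were higher and 4 lower in H1299, with POLR1A (log2 −1.36, limma adjusted p = 0.000300), UBTF (−1.04, 0.000830) and POLR1C, another subunit of both polymerases (0.88, 0.00218), the widest. In either direction 53.8% of this list were called, beside 53.6% of all genes.

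**Figure D4:**
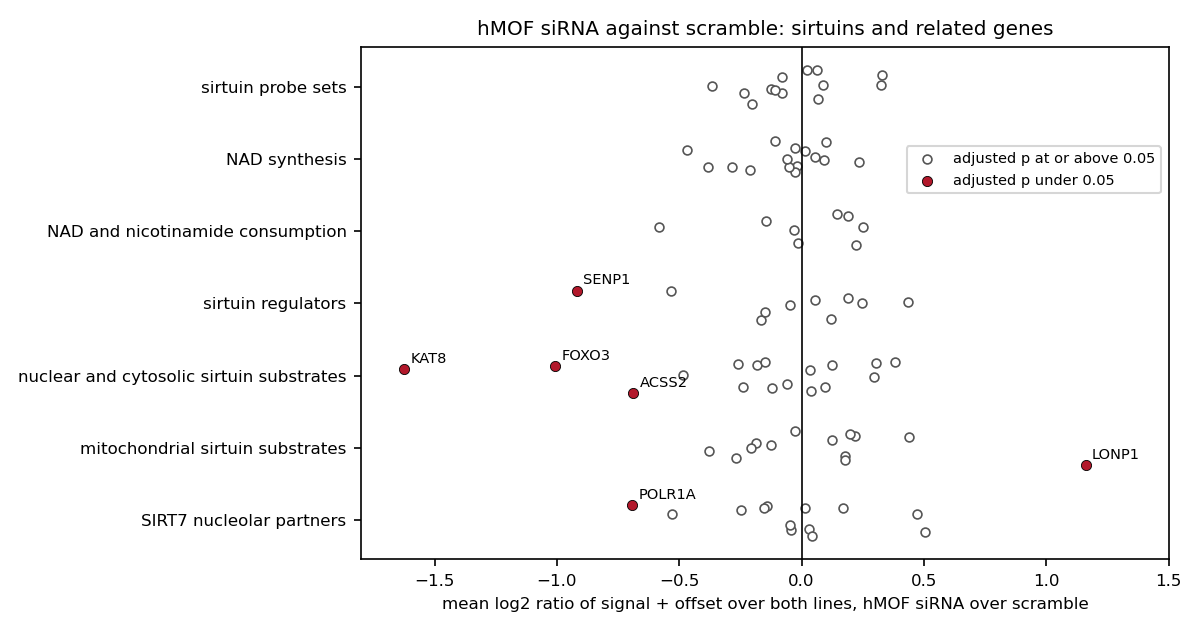
Mean log2 ratio of signal plus offset over both lines, hMOF siRNA over scramble, for the 13 tested sirtuin probe sets and for the genes of 6 related lists, 1 point each with vertical jitter, filled where limma's adjusted p was under 0.05. No sirtuin point is filled, and the filled points are SENP1, KAT8, FOXO3, ACSS2 and POLR1A to the left of 0 and LONP1 to the right.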

How the data were processed

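The authors deposited linear signal intensity values per probe set, made with MAS5 per the submitters' processing notes. The MAS5 version, like its scaling target, was not given in the sources used here. Source names set the groups. Members and lists were chosen with earlier results of these data known. Genes were named through the platform annotation, with 41091 of the non-control probe sets carrying 1 gene, and looked up by identifier in RefSeq (GRCh38.p14), which changed 0 symbols.

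The 62 control probe sets were left out. Log2 of signal plus 29.06 (the 20th percentile of all signals) was fitted with limma 3.58.1 in R 4.3.3 (lmFit, eBayes) with terms for line and siRNA, 1 residual and 4.82 prior degrees of freedom. The fit was run on data simulated from its own prior variance with independent noise. Such a run checks the code and says nothing on the p values of these arrays. Within a line, 2-fold is a rule of size with no test. Text names all sirtuin probe sets, KAT8, list genes called with hMOF siRNA or with the 3 widest ratios in either comparison, marker genes, and the 3 nearest profiles of each sirtuin gene called; NAMPT, NAPRT, CCAR2 and IDH2 were chosen after their values were seen. Alternatives changed the offset, the filter, the scaling or the choice of probe set, left out the block, or added a trend in eBayes. Figures used matplotlib 3.10.9.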

Additional observations from a re-analysis of the deposited data

Results flagged for a closer look

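The hMOF siRNA ratio had opposite signs in the 2 lines for 4 tested sirtuin probe sets, and the difference between lines was not tested. SIRT2 220605_s_at was at log2 −0.093 in H1299 and 0.14 in A549, and SIRT2 1558331_at at 0.19 in H1299 and −0.058 in A549. SIRT3 49327_at was at 0.15 in H1299 and −0.024 in A549, and SIRT3 221562_s_at at −0.31 in H1299 and 0.15 in A549. With quantile normalization 49327_at was above 0 in both lines, at 0.20 in H1299 and 0.069 in A549, while the others kept opposite signs. Averaging the tested probe sets of each gene gave the same sign in both lines. SIRT2 was then at 0.049 in H1299 and 0.040 in A549, and SIRT3 at −0.081 and −0.012.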

How the results depend on the processing

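No sirtuin probe set was called with hMOF siRNA, or 2-fold in either line, under any alternative run. For H1299 against A549, 3 were called. That count was 4 with an offset of 0, with no filter and with a trend in eBayes, and 2 with _x_at probe sets left out. Averaging the tested probe sets of each gene left 1, SIRT1 (limma adjusted p = 0.00708). Leaving out the replicate block, the pairing by siRNA, left a different 1, SIRT6 233179_x_at (limma adjusted p = 0.0329). Without the block (the lines as pairs for the siRNA test) 0 probe sets of the whole table were called with hMOF siRNA by limma, 761 at an unadjusted p under 0.05, and 8344 between lines, against 1624 and 13645 with it. With 1 value a gene, fewer features were tested, and 542 (mean of probe sets) and 458 (brightest probe set) were called with hMOF siRNA and 6799 and 6724 between lines. Means that changed sign were not called in either setting. With quantile normalization they were SIRT2 1558331_at (0.00089) and SIRT7 (0.00038) between lines, and with averaging SIRT3 (−0.047) and SIRT6 (0.0032) for siRNA; the cause was not tested. No array could be left out of the fit, since 3 arrays leave no residual degree of freedom. Dim signal limits SIRT4 and 2 SIRT5 probe sets.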
